A study of Drosophila melanogaster with 6 samples.

Results

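The genes described here are the aminoacyl-tRNA synthetase genes of Drosophila melanogaster, taken as every gene whose symbol consists of amino acid names of 3 letters followed by RS, with or without the suffix -m. The rule found 33 of the 17714 genes listed, 18 without the suffix, called cytosolic enzymes below, and 15 with it, called mitochondrial enzymes below. The division rests on the symbols, and no file measured where a protein resides. GluProRS, which carries the glutamyl and prolyl activities in a single chain, is counted once. The cytosolic phenylalanyl enzyme falls outside the rule because its subunits are named alpha-PheRS and beta-PheRS.

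Poly(A) RNA was sequenced from Kc cells, an embryonic Drosophila line with traits of plasmatocytes, the macrophage-like blood cells of the fly. The design set 3 libraries labelled ko (KO below) against 3 labelled wild type (WT below), and the series names the gene under study as CG14906, or mettl4, an m6A methyltransferase gene acting on U2 snRNA. The titles of the KO libraries carry the prefix OE, while their source and genotype fields say ko. No label gives the allele, the way the line was made or the number of clones, and separate cultures are not named for any group, so each p-value is set against the spread among these libraries alone, and that spread may be technical. No treatment or time is given for either group.

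Aminoacyl-tRNA synthetases join each amino acid to its tRNA and so set the genetic code at the step before the ribosome. They fall into 2 structural classes, class I with a Rossmann-fold catalytic domain and class II with an antiparallel sheet, and animal cells keep a cytosolic and a mitochondrial set that are both encoded in the nucleus. Some genes serve both compartments through alternative starts, as those for the glycyl and lysyl enzymes do in humans. In animal cells several cytosolic synthetases sit in a multisynthetase complex held together by AIMP proteins, and in mammals many cytosolic synthetase genes are targets of ATF4 in the amino acid response.

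Expected counts per library summed to between 11301501 and 14312536 in KO and between 9963557 and 18906951 in WT. CG14906 had 20.3, 18.5 and 20.2 normalised CPM (the count of a gene relative to the scaled library total) in KO, against 18.9, 20.1 and 16.4 in WT (log2 fold change 0.10, SE 0.10, edgeR adjusted p = 0.435). Its groups thus overlapped, and its RNA level does not by itself tell the groups apart. With the median change of neighbouring genes as an offset the value was -0.29 (edgeR adjusted p = 0.0483). The error of that median was not carried into the p-value. Summed TPM, a transcript level corrected for length, of 8 plasmatocyte markers lay between 1260 and 2090 in KO and between 828 and 1230 in WT, with 4 called higher and 2 called lower. Higher were Pxn, vkg, Col4a1 and srp (log2 fold changes 4.15, 1.42, 1.46 and 0.18), and lower were eater (-2.10) and crq (-0.30). Hml was not called and NimC1 was not tested, so the markers did not move as a set. Summed TPM of 5 germline markers lay between 174 and 191 in KO and between 54.5 and 68.1 in WT, with 4 called higher and 0 called lower. Summed TPM stayed at or below 1.31 in every library for the crystal cell, fat body and muscle markers. For the 3 lamellocyte markers it lay between 96.6 and 132 in KO and between 97.7 and 105 in WT. Most of that sum was cher, which was not called, while PPO3 was called higher (log2 fold change 4.89, edgeR adjusted p = 8.72e-07). Mean TPM of PPO3 was 18.7 in KO and 0.63 in WT, and atilla was not tested. For neuronal markers the sum lay between 8.91 and 10.8 in KO and between 13.7 and 15.7 in WT. Of these elav was called lower (log2 fold change -0.70, edgeR adjusted p = 0.00192). The part of these marker differences in the synthetase values was not tested.

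Every one of the 33 synthetase genes passed the filter on low counts, with at least 95.6 expected counts in each library. Levels per transcript length separated the compartments. Mean TPM over all 6 libraries ranged from 56.5 for LeuRS to 301 for AsnRS among the 18 cytosolic genes, with a median between genes of 122, and from 5.78 for ValRS-m to 85.9 for AspRS-m among the 15 mitochondrial genes, with a median of 20. AspRS-m, for the mitochondrial aspartyl enzyme, was the one mitochondrial gene that reached the lower part of the cytosolic range. The highest cytosolic levels belonged to AsnRS and AspRS, the asparaginyl and aspartyl enzymes, at 301 and 300.0 TPM, which differed by less than their spread between libraries. In AspRS 76.3% of the exon bases are shared with other annotated genes, among them Nmda1 on the opposite strand, so its level is uncertain.

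**Figure D1:**
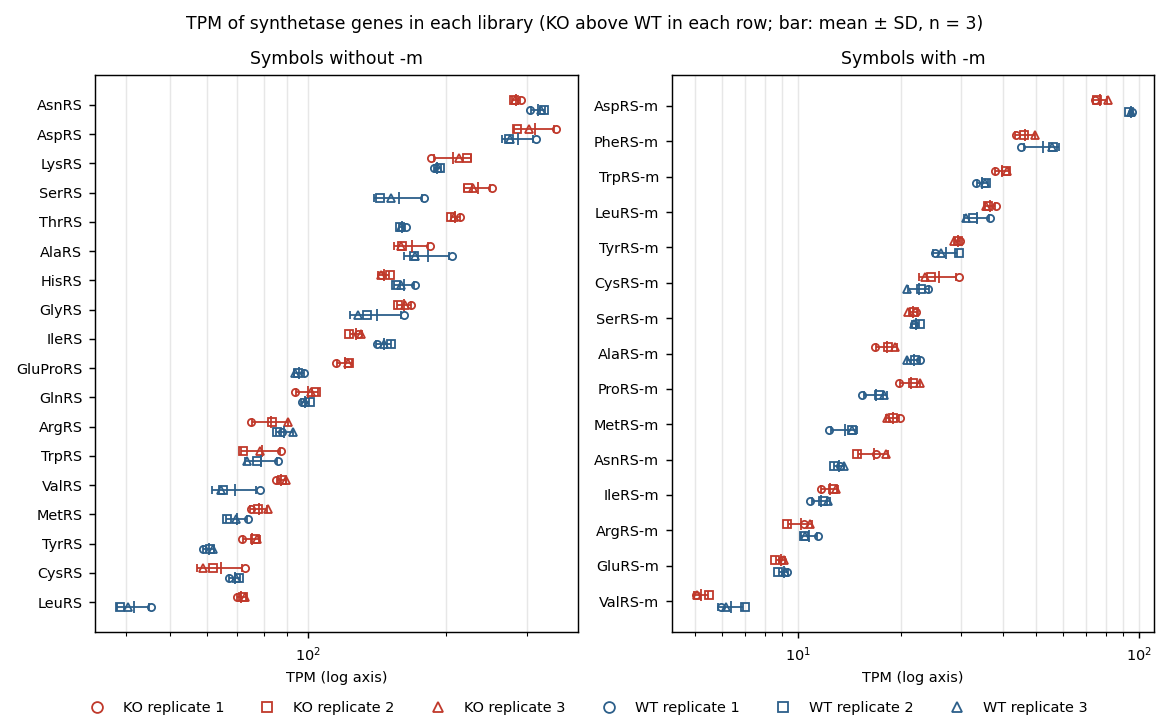
Deposited TPM on a log axis for each synthetase gene, with the KO libraries (red) above the WT libraries (blue) in each row and bars for the mean ± SD of 3 libraries. Cytosolic genes on the left run from AsnRS, with a mean of 301 over all libraries, down to LeuRS at 56.5, and mitochondrial genes on the right from AspRS-m at 85.9 down to ValRS-m at 5.78.

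The comparison asked which synthetase genes differed in RNA level between KO and WT. In KO 11 of the 33 were higher and 3 lower (quasi-likelihood test of edgeR with p adjusted by Benjamini-Hochberg over 8405 tested genes and a limit of 0.05, termed called below), and the other 19 were not called. The called share of 42.4% stood beside 54.1% for all tested genes, where 27.7% were called higher and 26.5% lower. Among the 6450 tested genes with a mean normalised CPM at or above that of the lowest synthetase, 57.3% were called. The synthetases were thus called no more often than other genes. Their changes were also small, with a median absolute log2 fold change of 0.18 against 0.33 for all tested genes. LeuRS and SerRS alone were called with a change of at least 1.5-fold, 2 of 33, where 23.1% of all tested genes were, and no synthetase reached a change of 2-fold. These comparisons of size were made with all tested genes, which include genes of lower counts, and not with the 6450. Normalised CPM did not overlap between the groups for 19 members, 13 with KO above WT and 6 with KO below WT, while 63.3% of all tested genes showed no overlap, 31.9% with KO above WT and 31.4% with KO below WT. Leaving out WT replicate 2 left 1 lower call, and leaving out WT replicate 1 or KO replicate 1 gave 5 each, while the higher calls ranged from 8 to 13 over the fits without 1 library.

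The cytosolic enzymes gave 7 higher and 1 lower of 18, with a median log2 fold change of 0.14, and the mitochondrial enzymes gave 4 higher and 2 lower of 15, with a median of 0.12. The median over all tested genes was 0.01. With segment medians as an offset the median was 0.09 for the cytosolic and -0.08 for the mitochondrial genes, and the mitochondrial median thus turned in sign. Single genes ranged from -0.18 to 0.80 in the cytosolic group and from -0.28 to 0.54 in the mitochondrial group. Leaving out WT replicate 1 gave 2 lower cytosolic calls, leaving out KO replicate 1 gave 3, and leaving out any 1 of the other 4 libraries gave 0. Without WT replicate 2 the mitochondrial calls were 2 higher and 1 lower. No test was made between the compartments, since genes are not replicates of a condition. By structural class, 6 of 18 class I genes were higher and 1 lower, 4 of 14 class II genes were higher and 2 lower, and GluProRS, which joins both classes, was higher.

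**Figure D2:**
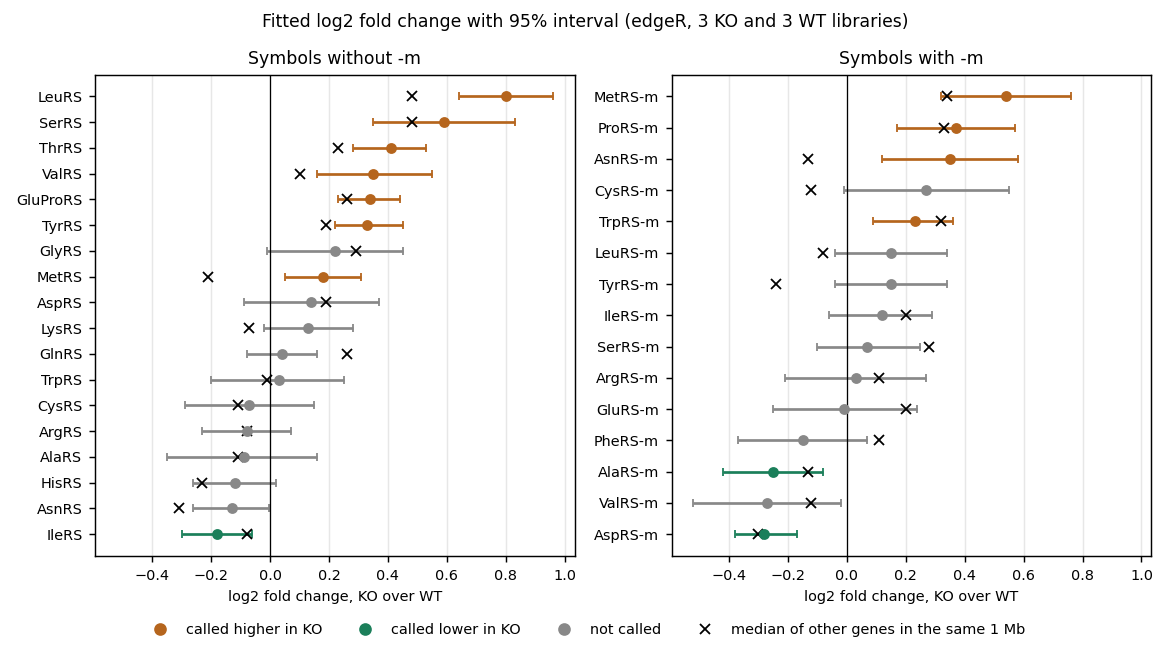
Fitted log2 fold change of KO over WT with its 95% interval for each synthetase gene, cytosolic on the left and mitochondrial on the right, coloured by the call, with a cross for the median of the other tested genes in the same 1 Mb segment. LeuRS stands highest at 0.80 and AspRS-m lowest at -0.28, and most intervals of genes in grey include 0.

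LeuRS, the cytosolic leucyl enzyme, and SerRS, the cytosolic seryl enzyme, showed the largest rises. LeuRS lies on 2L from 3510328 to 3514656 (minus strand, dm6), and had 184, 186 and 182 normalised CPM in KO replicates 1 to 3, against 116, 97.8 and 102 in WT replicates 1 to 3. Every KO library was above every WT library, and the KO values spread less than the WT values. The change was 1.75-fold (log2 fold change 0.80, SE 0.07, 95% interval 0.64 to 0.96, edgeR adjusted p = 0.000109). SerRS lies on 2L from 3035493 to 3037403 (minus strand), has no annotated intron and shares 2.2% of its exon bases with CG17260 on the opposite strand. It had 299, 259 and 257 normalised CPM in KO, against 206, 163 and 172 in WT. The groups did not overlap, and replicate 1 was the highest library in each of them. The change was 1.51-fold (log2 fold change 0.59, SE 0.10, 95% interval 0.35 to 0.83, edgeR adjusted p = 0.00244).

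Both genes lie in the same 1 Mb segment of 2L, with 474.8 kb between their starts, and the other 56 tested genes of that segment had a median log2 fold change of 0.48. With that median as an offset LeuRS stood at 0.33 (edgeR adjusted p = 0.00704) and SerRS at 0.11 (adjusted p = 0.401), so the call of SerRS was lost.

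ThrRS, for the threonyl enzyme, lies on 2L from 12103751 to 12107170 (plus strand). It had 340.0, 318 and 312 normalised CPM in KO, against 250, 239 and 241 in WT. Again the lowest KO library stood above the highest WT library (log2 fold change 0.41, SE 0.05, edgeR adjusted p = 0.000695). ValRS, for the valyl enzyme, lies on 2R from 13198850 to 13202709 (plus strand) and had 195, 197 and 194 normalised CPM in KO, against 174, 143 and 142 in WT. The KO libraries were nearly level, while WT replicate 1 stood apart from the other two (log2 fold change 0.35, SE 0.08, adjusted p = 0.00947). GluProRS, the bifunctional glutamyl-prolyl enzyme, lies on 3R from 23952136 to 23958391 (minus strand). Its normalised CPM was 424, 434 and 424 in KO, against 343, 338 and 334 in WT. The gap between the groups was far wider than the spread within either (log2 fold change 0.34, SE 0.05, adjusted p = 0.000863), with 16.6% of its exon bases shared with asRNA:CR46092 on the opposite strand.

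TyrRS, for the tyrosyl enzyme, lies on 3L from 16417349 to 16419302 (minus strand). It had 84.9, 89.1 and 87.0 normalised CPM in KO, against 67.7, 69.1 and 70.4 in WT, with no overlap (log2 fold change 0.33, SE 0.05, edgeR adjusted p = 0.00131). Its neighbour 171 bases away on the same strand is GluRS-m, the mitochondrial glutamyl enzyme, at 16415292 to 16417177. GluRS-m had 10.2, 9.59 and 9.80 normalised CPM in KO, against 10.2, 9.57 and 10 in WT, and its groups overlapped (log2 fold change -0.01, SE 0.10, 95% interval -0.25 to 0.24, adjusted p = 0.948). The adjacent pair thus differed in the call, a difference between genes that was not tested itself.

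MetRS, for the methionyl enzyme, gave the smallest of the cytosolic rises. It lies on 2R from 18846858 to 18850599 (minus strand) and had 176, 178 and 181 normalised CPM in KO, against 168, 149 and 156 in WT (log2 fold change 0.18, SE 0.06, edgeR adjusted p = 0.0299). Leaving out WT replicate 2, WT replicate 3, KO replicate 2 or KO replicate 3 ended the call, with adjusted p-values of 0.127, 0.106, 0.0798 and 0.10 in that order. It was also lost without a count filter (0.139), with WT replicates 2 and 3 summed (0.116) and with limma on log2(TPM + 0.5) (0.0739). IleRS, for the isoleucyl enzyme, was the single cytosolic gene called lower. It lies on 3L from 22288665 to 22292810 (plus strand) and had 343, 321 and 330.0 normalised CPM in KO, against 365, 387 and 376 in WT. The groups did not overlap (log2 fold change -0.18, SE 0.05, adjusted p = 0.0210), but leaving out those same libraries ended the call, with adjusted p-values of 0.0745, 0.0641, 0.0813 and 0.0663, as did summing WT replicates 2 and 3 (0.0660).

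The remaining 10 cytosolic genes, GlyRS, AspRS, LysRS, GlnRS, TrpRS, CysRS, ArgRS, AlaRS, HisRS and AsnRS, were not called, with log2 fold changes between -0.13 and 0.22. GlyRS, for the glycyl enzyme, had 281, 257 and 258 normalised CPM in KO, against 263, 215 and 206 in WT (log2 fold change 0.22, 95% interval -0.01 to 0.45, edgeR adjusted p = 0.0925). Replicate 1 was again the highest library of both groups, and with the replicate number as a block GlyRS was called (0.23, adjusted p = 0.0172), as was AspRS (0.13, adjusted p = 0.0490). AsnRS, the most abundant of the set per length, had 391, 368 and 360.0 normalised CPM in KO, against 396, 418 and 413 in WT, with no overlap and no call (log2 fold change -0.13, SE 0.06, adjusted p = 0.0745). It was called lower without WT replicate 1 (-0.17, adjusted p = 0.0406) or KO replicate 1 (-0.17, adjusted p = 0.0259) and with limma on log2(TPM + 0.5) (-0.16, adjusted p = 0.0374). TrpRS and GlnRS stood nearest to 0, at 0.03 (95% interval -0.20 to 0.25) and 0.04 (95% interval -0.08 to 0.16), and the sign of each turned under some settings. Without KO replicate 1, LysRS was called higher (0.18, adjusted p = 0.0199) and CysRS lower (-0.19, adjusted p = 0.0196), and without WT replicate 1 GlyRS was called higher (0.32, adjusted p = 0.00605).

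Among the mitochondrial enzymes MetRS-m, for the methionyl enzyme, rose most. It lies on 3R from 14249043 to 14259991 (minus strand) and had 26.9, 24.5 and 23.2 normalised CPM in KO, against 15.6, 17.5 and 18.2 in WT. All KO libraries were above all WT libraries, and replicate 1 was the highest in KO and the lowest in WT (log2 fold change 0.54, SE 0.09, 95% interval 0.32 to 0.76, edgeR adjusted p = 0.00251). ProRS-m, for the prolyl enzyme, lies on 3L from 2650161 to 2651850 (minus strand). It had 19.9, 21.3 and 21.6 normalised CPM in KO, against 15, 16.6 and 17.2 in WT, without overlap (log2 fold change 0.37, SE 0.09, adjusted p = 0.00904). AsnRS-m, for the asparaginyl enzyme, lies on 2R from 17001994 to 17003599 (plus strand) and had 16.7, 14.3 and 16.9 normalised CPM in KO, against 12.6, 12 and 12.8 in WT (log2 fold change 0.35, SE 0.10, adjusted p = 0.0197). Leaving out WT replicate 2, WT replicate 3 or KO replicate 3 ended that call, with adjusted p-values of 0.0735, 0.0555 and 0.0802, and it was also lost with DESeq2 (0.0650), without a count filter (0.0733) and with WT replicates 2 and 3 summed (0.0620). TrpRS-m, for the tryptophanyl enzyme, lies on 3L from 17849727 to 17852453 (plus strand) and had 63.7, 67.3 and 64.2 normalised CPM in KO, against 53.3, 56.3 and 57.1 in WT (log2 fold change 0.23, SE 0.06, adjusted p = 0.0137). Leaving out WT replicate 2 (adjusted p = 0.0534) or KO replicate 2 (0.0712) ended its call, which was also lost without a count filter (0.0908) and with WT replicates 2 and 3 summed (0.0511).

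AspRS-m and AlaRS-m, for the aspartyl and alanyl enzymes, were the mitochondrial genes called lower. AspRS-m, on 2L from 16827078 to 16832093 (plus strand), had 204, 203 and 209 normalised CPM in KO, against 253, 244 and 248 in WT. The groups were well apart and each was nearly level (log2 fold change -0.28, SE 0.04, 95% interval -0.38 to -0.17, edgeR adjusted p = 0.00181). AlaRS-m, on 3L from 5146098 to 5149852 (plus strand), had 37.4, 40.0 and 40.8 normalised CPM in KO, against 49.2, 46.8 and 44.6 in WT (log2 fold change -0.25, SE 0.07, adjusted p = 0.0210). Its groups did not overlap, and its call was lost without WT replicate 2 (adjusted p = 0.0524).

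The other 9 mitochondrial genes, CysRS-m, LeuRS-m, TyrRS-m, IleRS-m, SerRS-m, ArgRS-m, GluRS-m, PheRS-m and ValRS-m, were not called, with log2 fold changes between -0.27 and 0.27. ValRS-m, the least abundant per length, had 10.9, 11.6 and 10.4 normalised CPM in KO, against 12.5, 14.5 and 12.8 in WT, with no overlap (log2 fold change -0.27, SE 0.11, edgeR adjusted p = 0.0652). CysRS-m had 40.7, 32.1 and 30.5 normalised CPM in KO, against 30.3, 28.8 and 26.9 in WT (log2 fold change 0.27, SE 0.12, adjusted p = 0.0948). With the replicate block ValRS-m was called lower (-0.27, adjusted p = 0.0477), and CysRS-m (0.26, adjusted p = 0.0343) and LeuRS-m (0.15, adjusted p = 0.0452) were called higher. PheRS-m, for the phenylalanyl enzyme, had 44.2, 45.6 and 47.7 normalised CPM in KO, against 44.4, 54.0 and 54.0 in WT, where WT replicate 1 lay among the KO values. Without that library PheRS-m was called lower (-0.25, edgeR adjusted p = 0.0183) and LeuRS-m higher (0.22, adjusted p = 0.0372). The WT spread in that fit came from replicates 2 and 3 alone, which differed least of all pairs (chi-square per gene 1.69) and may differ only technically.

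Replicate 1 of each group deviated from the other libraries in many synthetase genes. It was the highest library of both groups for 10 members, among them SerRS, ThrRS, GlyRS, AspRS, TrpRS and AlaRS, and the lowest of both for 7 members, among them TyrRS, LysRS and GlnRS. Of all tested genes, 23.1% had replicate 1 highest in both groups and 23.4% had it lowest in both. AlaRS, for the cytosolic alanyl enzyme, shows the pattern, with 400.0, 339 and 327 normalised CPM in KO, against 432, 352 and 354 in WT (log2 fold change -0.09, 95% interval -0.35 to 0.16, edgeR adjusted p = 0.488).

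Summed over the set, cytosolic synthetase RNA was higher in KO, and the order of the mitochondrial sums depended on the scale. The 18 cytosolic genes together had 2657, 2563 and 2602 TPM in KO, against 2518, 2366 and 2369 TPM in WT, so every KO sum lay above every WT sum. The largest gains in mean TPM were those of SerRS, at 234 in KO and 158 in WT, and ThrRS, at 209 and 160. Of the 18 genes 6 had a log2 fold change below 0, and the sum does not describe each gene. The 15 mitochondrial genes together had 385, 384 and 397 TPM in KO, against 383, 398 and 391 TPM in WT, which overlapped. Their summed normalised CPM was 651, 638 and 638 in KO, against 656, 658 and 652 in WT, with every KO sum below every WT sum. AspRS-m alone gave 204, 203 and 209 of that CPM in KO, against 253, 244 and 248 in WT. Of the 15 genes 10 had a log2 fold change above 0, so the mitochondrial sum and its share do not describe each gene. The mitochondrial sum was 14.5%, 15% and 15.3% of the cytosolic sum in KO, against 15.2%, 16.8% and 16.5% in WT, and KO replicate 3 lay above WT replicate 1. On the CPM scale the share was 14.5%, 14.9% and 15.2% in KO, against 15.9%, 17.2% and 17% in WT, without overlap. These sums over the members were given no test.

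For 14 amino acid pairings of a mitochondrial gene with the cytosolic gene of the same amino acid, the ratio of their TPM was taken within each library. The mitochondrial gene was below its cytosolic partner in every library for all 14 pairings. The ratio of LeuRS-m to LeuRS was lowest in KO relative to WT, with log2 ratios of -0.88, -1.0 and -1.02 in KO, against -0.31, -0.25 and -0.38 in WT. LeuRS-m thus averaged 51.2% of the level of LeuRS in KO and 80.5% in WT. The ratios carry no offset for neighbouring genes. With segment medians as an offset LeuRS stood at 0.33 and LeuRS-m at 0.24, against log2 fold changes of 0.80 and 0.15 without it. For ValRS-m to ValRS the means were 5.93% in KO and 9.21% in WT, and for SerRS-m to SerRS 9.29% in KO and 14.1% in WT. The opposite order held for AsnRS-m to AsnRS, with 5.85% in KO and 4.17% in WT, for MetRS-m to MetRS, with 24.4% and 19.6%, and for CysRS-m to CysRS, with 40.1% and 32.7%. The ratio was lower in KO with no overlap for 6 pairings and higher in KO with no overlap for 4, and the median difference over the 14 was -0.07 on the log2 scale. Of all tested genes taken singly, 63.3% showed no overlap in normalised CPM. No such share was computed for ratios of other gene pairs, so the count is not read as particular to these pairings. A two-sided exact permutation test with 3 libraries against 3 cannot go below p = 0.10, which these 10 pairings reached (Benjamini-Hochberg adjusted p = 0.140 over the 14), so no single ratio could pass the threshold.

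**Figure D3:**
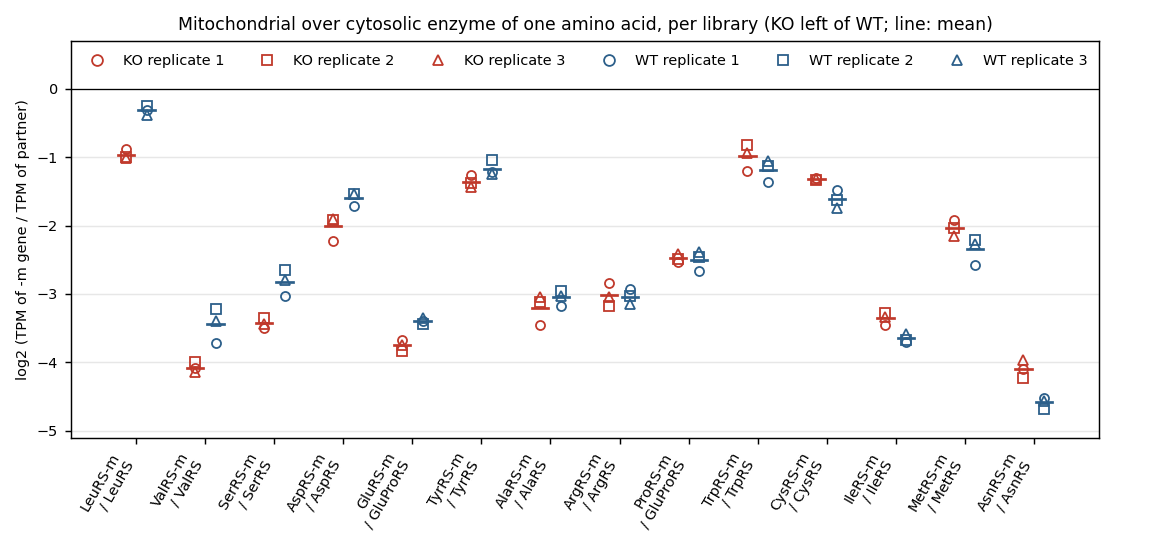
The log2 ratio of the TPM of each mitochondrial synthetase gene to that of the cytosolic gene for the same amino acid, one point per library with KO (red) left of WT (blue) and a line at each mean. LeuRS-m to LeuRS at the left has means of -0.97 in KO and -0.31 in WT, and AsnRS-m to AsnRS at the right has -4.10 in KO and -4.58 in WT.

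The changes of the synthetase genes were compared with those of their chromosomal neighbours. Each member was set beside the median log2 fold change of the other tested genes in its 1 Mb segment. Across the 33 members Pearson's r between the member and its segment median was 0.68 (Spearman's rho 0.61), and across 8200 tested genes r was 0.23 (rho 0.40). These values describe points that share libraries, and genes of a segment share most of their median. All tested genes include genes of lower counts and ranged from -10.34 to 12.95, against -0.28 to 0.80 for the members. No correlation was computed for genes of like counts, so the higher r of the members is not read as particular to them. Of the 33 members 24 lay on the same side of 0 as their segment, as did 68.0% of all tested genes. MetRS and AsnRS-m, both on 2R, were called higher in segments with medians of -0.21 and -0.13.

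With the segment median as an offset, 5 of the 14 calls were kept, those of LeuRS, ThrRS (0.18, edgeR adjusted p = 0.0270), ValRS (0.26, adjusted p = 0.0378), MetRS (0.39, adjusted p = 0.00133) and AsnRS-m (0.48, adjusted p = 0.00678). The calls of SerRS (0.11), GluProRS (0.08), TyrRS (0.14), IleRS (-0.10), MetRS-m (0.20), ProRS-m (0.04) and AlaRS-m (-0.12) were lost, and TrpRS-m (-0.10) and AspRS-m (0.02) turned in sign without a call. AspRS-m thus stood level with its neighbours, whose median was -0.30. In the same fit TyrRS-m (0.38, adjusted p = 0.00747), CysRS-m (0.39, adjusted p = 0.0326), LeuRS-m (0.24, adjusted p = 0.0494), LysRS (0.21, adjusted p = 0.0338) and AsnRS (0.18, adjusted p = 0.0319) were called higher and GlnRS lower (-0.22, adjusted p = 0.0109). LeuRS, ThrRS and ValRS were the 3 members called both with this offset and in each fit without 1 library. The segment medians came from the same libraries and were entered as known values, so the p-values with the offset may be too small.

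**Figure D4:**
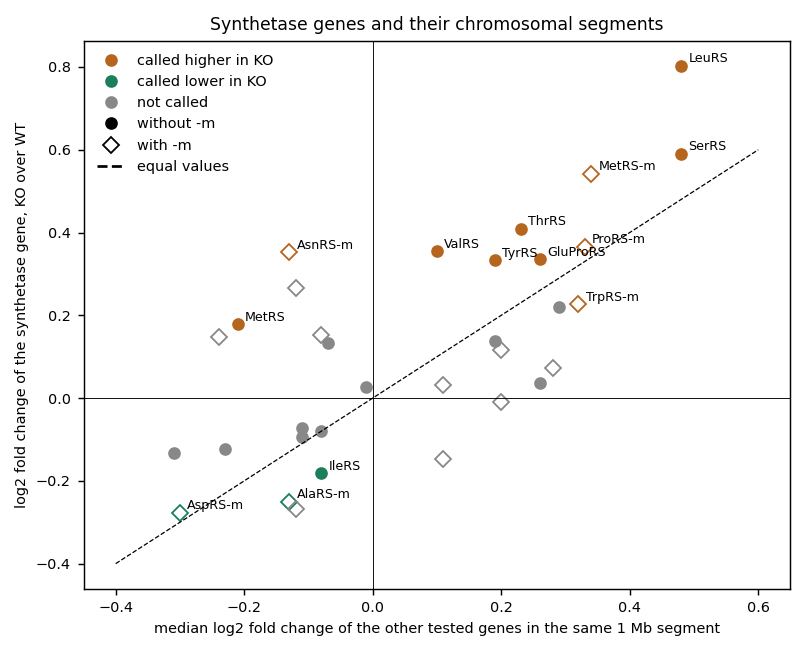
Log2 fold change of each synthetase gene (KO over WT) against the median of the other tested genes in its 1 Mb segment, with filled circles for cytosolic and open diamonds for mitochondrial genes. LeuRS and SerRS share the segment median of 0.48 at the upper right, and MetRS and AsnRS-m are called higher left of 0, at segment medians of -0.21 and -0.13.

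Transcript choice within the synthetase genes was read from the isoform-weighted length, which moves only where the estimated shares of a gene's transcripts move. Of 20 members with several transcripts in the files, 19 could be tested, and 0 were called (limma, Benjamini-Hochberg adjusted p under 0.05), where 2.72% of 4002 tested genes were, a count of 109 that fell to between 18 and 69 without any 1 of the 6 libraries and to 14 with the replicate block. At an unadjusted p under 0.05 there were 2 of 19, ArgRS-m and MetRS-m, where 16.4% of all tested genes were. ArgRS-m, the mitochondrial arginyl enzyme, had weighted lengths of 2368, 2283 and 2328 bases in KO, against 2204, 2205 and 2147 bases in WT. Its KO libraries were all longer, by 6.46% on the mean log2 scale (limma adjusted p = 0.0966). ArgRS-m shares 11.8% of its exon bases with mRpS9 on the opposite strand, and the part of this overlap in its lengths was not tested. For MetRS-m the lengths were 2009, 1956 and 1989 bases in KO, against 1933, 1893 and 1953 bases in WT (limma adjusted p = 0.294). GlyRS, HisRS, LysRS and ThrRS, for which no gene with the suffix -m was found, have 3, 4, 3 and 4 annotated transcripts, and their weighted lengths differed by at most 0.27% between the groups. A shift between transcripts of nearly equal length would hardly move this measure, so it cannot show that their transcript choice was unchanged.

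The subunits of cytosolic phenylalanyl-tRNA synthetase rose together. The catalytic subunit gene alpha-PheRS had 80.7, 93.3 and 92.8 normalised CPM in KO, against 68.5, 64.9 and 64.7 in WT (log2 fold change 0.43, SE 0.07, edgeR adjusted p = 0.00208). The partner subunit gene beta-PheRS had 107, 117 and 121 normalised CPM in KO, against 80.4, 79.3 and 74.7 in WT (log2 fold change 0.56, SE 0.06, adjusted p = 0.000338). Neither gene had overlapping groups. Slimp, a mitochondrial paralogue of seryl-tRNA synthetase without charging activity, was not called (log2 fold change 0.26, adjusted p = 0.139), though it was with the replicate block (0.27, adjusted p = 0.0337) and without WT replicate 1 (0.41, adjusted p = 0.0165).

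GatA, GatB and GatC encode the amidotransferase that makes mitochondrial glutaminyl-tRNA from the product of GluRS-m. GatA had 16.1, 15.8 and 15.3 normalised CPM in KO, against 21.1, 19.3 and 21.3 in WT (log2 fold change -0.39, SE 0.08, edgeR adjusted p = 0.00434). GatC had 26.3, 26.7 and 24.2 normalised CPM in KO, against 30.2, 35.7 and 34.4 in WT (log2 fold change -0.37, SE 0.09, adjusted p = 0.00916), but stood at 0.11 with its segment median of -0.48 as an offset. GatB was not called (log2 fold change 0.11, adjusted p = 0.216). Subunits of this enzyme were therefore lower or not called beside a GluRS-m at -0.01.

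Of the scaffold genes of the multisynthetase complex, AIMP2 was called and AIMP1 and AIMP3 were not. AIMP2 had 77.4, 78.1 and 74.8 normalised CPM in KO, against 54.0, 52.8 and 51.9 in WT (log2 fold change 0.54, SE 0.05, edgeR adjusted p = 0.000193). AIMP1 stood at -0.06 (adjusted p = 0.687) and AIMP3 at 0.09 (adjusted p = 0.443).

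Of 9 cytosolic elongation and release factor genes 7 were higher and 1 lower, with a median log2 fold change of 0.33. The lower gene, the translocase gene eEF2, is named after its values were seen (log2 fold change -0.23, edgeR adjusted p = 0.0470). Its call was lost on leaving out any 1 of WT replicates 2 and 3 and KO replicates 2 and 3, which left 0 lower calls, and under most other settings, the replicate block and the segment offset included. The release factor gene eRF3 had 421, 432 and 426 normalised CPM in KO, against 275, 292 and 290.0 in WT (log2 fold change 0.58, SE 0.05, edgeR adjusted p = 0.000113). The exchange factor gene eEF1delta stood at 0.58 (adjusted p = 0.000972), and eEF1alpha2, which delivers charged tRNA to the ribosome, at 2.85 (adjusted p = 0.000698) from low levels of 15.8, 8.82 and 10.9 normalised CPM in KO, against 2.43, 0.798 and 1.52 in WT. Of 9 mitochondrial translation factor genes 1 was higher and 4 lower, with a median of -0.21, and the lower calls numbered 2 without KO replicate 3 and 1 with the segment offset. The exchange factor gene mEFTs was lower (-0.37, adjusted p = 0.00140) and so was the release factor gene mRF1 (-0.43, adjusted p = 0.0139), and the initiation factor gene mIF3 was higher (0.35, adjusted p = 0.0148). With segment offsets mEFTs stood at 0.12 and mRF1 at 0.05, in segments with medians of -0.49 and -0.48, and the call of mIF3 was lost (0.16, adjusted p = 0.203). The call of mRF1 was lost without WT replicate 3 (adjusted p = 0.0554), and that of mIF3 without a count filter (0.0599), WT replicate 2 (0.0590), KO replicate 2 (0.0523) or KO replicate 3 (0.0561).

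Of 16 tRNA maturation and modification genes, which make the substrate of the synthetases, 5 were higher and 1 lower (median log2 fold change 0.04). The higher calls numbered 3 without KO replicate 2. The lower call, of scu, named after its values were seen (-0.34, edgeR adjusted p = 0.0438), was lost on leaving out any 1 of WT replicates 2 and 3 and KO replicates 1 and 3, and with WT replicates 2 and 3 summed. Among the higher genes were the Elongator subunit gene Elp3 (0.52, edgeR adjusted p = 0.000695) and CG5220, which the annotation names as the tRNA methyltransferase gene Trm7-32 (0.65, adjusted p = 0.00183). Elp3 lies in a segment with a median of 0.45, and with this as an offset it stood at 0.08 (adjusted p = 0.407), so its call was lost. Of 11 genes for RNA polymerase III, which transcribes tRNA genes, and its factors 4 were higher and 2 lower (median 0.02), with 2 higher calls without KO replicate 2 or without a count filter. The initiation factor gene Bdp1 was lower (-0.81, adjusted p = 7.7e-05), as was the repressor gene Maf1 (-0.36, adjusted p = 0.00557), and the subunit gene CG7339 was higher (0.48, adjusted p = 0.00203).

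Of 9 genes of the amino acid response 6 were higher and 2 lower (median log2 fold change 0.39), with 1 lower call without KO replicate 3 and 3 without KO replicate 1. CG6287 had 13.4, 13.9 and 12.3 normalised CPM in KO, against 1.58, 1.10 and 1.73 in WT (log2 fold change 3.13, SE 0.19, edgeR adjusted p = 3.03e-05). Nmdmc, a mitochondrial folate enzyme gene, was higher (0.86, edgeR adjusted p = 0.000121), whereas AsnS, for asparagine synthetase, was lower (-0.57, adjusted p = 0.00128). Named after their values were seen, Gcn2 was called lower (-0.20, adjusted p = 0.0139) and crc was not called (-0.19, adjusted p = 0.209). These lists are described by their counts and medians beside the 54.1% of all tested genes that were called.

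**Figure D5:**
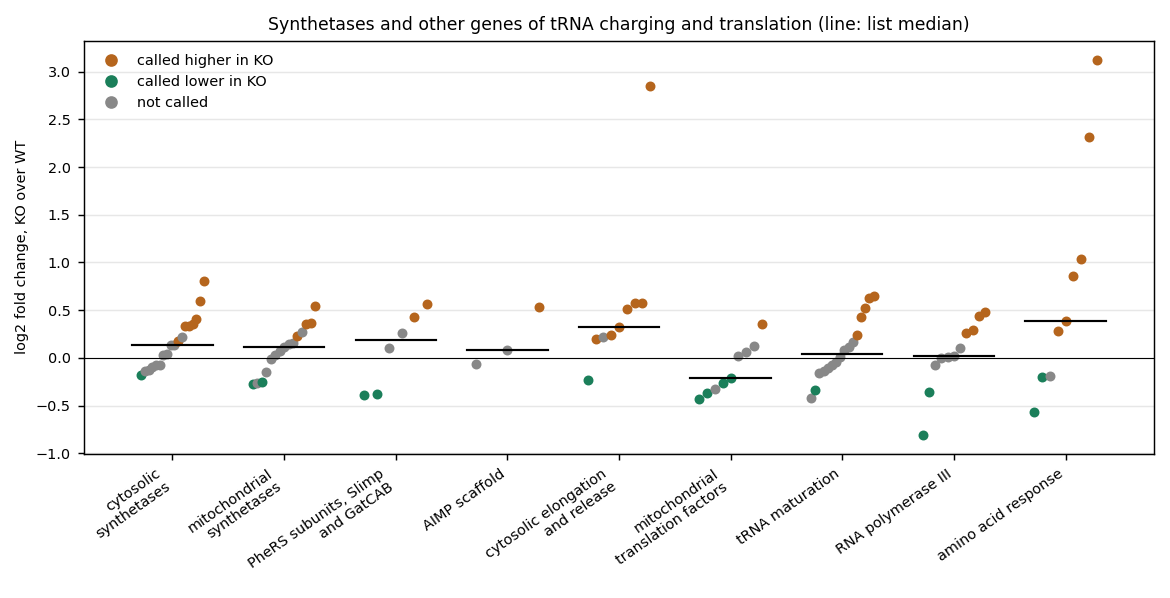
Log2 fold change of KO over WT for each synthetase gene and for the genes of 7 other lists of tRNA charging and translation, coloured by the call, with a line at each list's median. Medians are 0.14 for cytosolic and 0.12 for mitochondrial synthetases, 0.33 for cytosolic elongation and release factors and -0.21 for mitochondrial translation factors.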

How the data were processed

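Reads were processed by the authors with CASAVA 1.7, cutadapt, STAR 2.7.0f and RSEM 1.3.0 on dm6, per the submitters' processing notes. Annotation release, options and strand use: not given in the sources used here. The deposited files hold RSEM expected counts per gene, TPM relative to all genes of a library and, as another value, an isoform-weighted transcript length, per the file headers. The Ensembl annotation with dm6 coordinates held 17587 of the 17714 identifiers, including all 33 members. Of 10205 genes with a single transcript 99.6% had the annotated length within 0.5 bases.

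Expected counts were rounded and analysed by the quasi-likelihood F-test of edgeR 4.0.16 under R 4.3.3, after TMM scaling and filterByExpr at its minimum count, 10, with p adjusted over 8405 genes. The SE is the log2 fold change divided by the square root of F. Lengths were tested with limma 3.58.1 on the log2 scale for genes with at least 2 transcripts, a mean TPM of at least 5 and a length not constant over libraries. Alternatives used DESeq2 1.42.0, other filters and scalings, limma on log2(TPM + 0.5) and log2(TPM + 0.1), left-out libraries, WT replicates 2 and 3 summed, and segment medians (1 Mb, at least 20 other genes) as an offset. That offset was a fixed value from the same libraries, and its error is left out of the p-values of that fit. Members, lists and tests were chosen with earlier results of these data known. Named are all members, CG14906, the PheRS, Slimp, Gat and AIMP genes, and up to 3 called genes of each other list with the lowest adjusted p, of which 1 is not reported here. The list entries Nsun6, Trmt61A and Psat had no match and were not used.

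WT replicates 2 and 3 differed least (chi-square per gene 1.69 over 5470 genes with whole counts and a mean of at least 10, while KO replicates 2 and 3 gave 3.00 and every other pair at least 19.3) and were kept as separate samples. No label states a pairing of replicate numbers. Deviations from the group means correlated with r of 0.52, 0.15 and 0.40 for numbers 1 to 3, each over 0.1, so the numbers were taken as pairs in the alternative with a replicate block. KO replicate 2 correlated as well with WT replicate 3 (0.16), so only number 1 was matched by the data. In a simulation of 8405 genes, 8205 were left unaltered. The edgeR fit found 12 of the 50 genes altered 1.25-fold, 31 of the 50 altered 1.5-fold, 45 of the 50 altered 2-fold, and 3 false ones among 8205. Far fewer genes were altered there than the 54.1% called in the data. The simulated spread followed a fitted trend, without the deviation of replicate 1. These counts therefore do not give the power or error of the real comparison.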

Additional observations from a re-analysis of the deposited data

How the results depend on the processing

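Of the 14 called synthetases 9 kept their call in each fit without 1 library, 14 with the replicate block, 5 with segment medians as an offset and 10 in all other settings. With the replicate block 15 members were higher and 4 lower, and the count of all genes with a called length change was 14 against 109. The lower calls of members numbered 6 without both number-1 libraries and 1 with the offset, against 3. Any call gained without WT replicate 1 rests on a WT spread from replicates 2 and 3 alone, which may be technical. Those of cytosolic genes numbered 3 without both number-1 libraries, 0 with WT replicates 2 and 3 summed and 2 with limma at either pseudocount, against 1. Mitochondrial calls were 2 higher without a count filter and 2 higher with WT replicates 2 and 3 summed, against 4, and 0 lower with the offset, against 2. Over the fits without 1 library the lower calls ranged from 1 to 5 for members, from 0 to 3 for cytosolic genes and from 1 to 3 for mitochondrial genes, the higher mitochondrial calls from 2 to 5 and the length calls from 18 to 69. The offset turned the sign of GlyRS (-0.07), AspRS (-0.06), GlnRS (-0.22), CysRS (0.04), AlaRS (0.02), HisRS (0.10), AsnRS (0.18), TrpRS-m (-0.10), IleRS-m (-0.08), SerRS-m (-0.21), ArgRS-m (-0.08), AspRS-m (0.02), GatB (-0.09), GatC (0.11), AIMP1 (0.02), mEFTs (0.12), mRF1 (0.05) and CG14906 (-0.29). Other settings turned only values near 0. Without a count filter these were GlnRS (-0.0025), TrpRS (-0.01) and ArgRS-m (-0.01), with a minimum count of 50 GluRS-m (0.01), and without both number-1 libraries TrpRS (-0.00032). With WT replicates 2 and 3 summed they were TrpRS (-0.01) and ArgRS-m (-0.003), and with limma at either pseudocount SerRS-m (-0.03) and ArgRS-m (-0.08). Without 1 library GlnRS ranged from -0.01 to 0.06, TrpRS from -0.07 to 0.09, CysRS from -0.19 to 0.01, ArgRS-m from -0.03 to 0.10, GluRS-m from -0.04 to 0.01, AIMP1 from -0.15 to 0.05 and AIMP3 from -0.01 to 0.14. The cause of these changes was not tested. The lowest expected count of a synthetase in a library was 95.6, for GluRS-m.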
